A study of Mus musculus with 9 samples.

Results

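Biglycan (Bgn) and the genes of the fibroblast matrix were followed across mouse embryonic stem cell (mESC) lines that were derived on fibroblast feeders, and the question was whether Bgn moved with the matrix genes of such fibroblasts. The set listed 10 genes, chosen with Bgn as its lead: Bgn, Dcn, Lum, Col1a1, Col1a2, Col3a1, Col5a1, Col5a2, Postn and Fbn1. Members were the transcript clusters (sets of probes that read the transcripts of a gene) to which the array annotation gives 1 of these symbols alone. This gave 9 genes with 1 cluster each, of 23410 clusters tested. Fbn1 was not analysed here. Bgn was selected on its difference between mESCWM and the other groups, which is therefore given as a description with no test.

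The 9 lines, with 1 Affymetrix Mouse Gene ST array each, formed 3 groups of 3 lines on a C57BL/6 background, all labelled female. The mESCWM lines (WM1, WM2, WM3) came from blastocysts made by in vitro fertilization (IVF) and grown with 20% O2 in Whitten's Medium, conditions that the study regarded as suboptimal. The mESCKAA lines (KAA1, KAA2, KAA3) came from IVF blastocysts grown with 5% O2 in KSOM with amino acids. The mESCFB lines (FB1, FB2, FB3) came from blastocysts flushed from the uterus after natural mating. After derivation, every line was kept with LIF and a pair of kinase inhibitors on feeders of mouse embryonic fibroblasts, was moved to gelatin to remove the feeders, and was collected at the eighth passage. Each line grew from 1 blastocyst, so that differences between lines of a group include those between single embryos.

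Biglycan, decorin and lumican are small leucine-rich proteoglycans, secreted proteins with a horseshoe-shaped core that bind collagen fibrils. Biglycan and decorin carry chains of chondroitin or dermatan sulfate, and lumican carries keratan sulfate. Fibroblasts secrete these proteins together with the fibrillar collagens, and the expression of the type I collagen genes is a common mark of fibroblasts.

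The promoter of Bgn is shown because Bgn was the member whose level stood apart in some lines, and that of Col1a2 because it belongs to a main fibroblast collagen that did not share that pattern. Both sequences are from RefSeq (GRCm38.p6), in which 6 of the 10 listed genes had a promoter entry, and cover the 250 bases before the annotated start of transcription. Capitals mark matches, on either strand, to the GC box GGGCGG, the CCAAT box CCAAT, the TATA box TATAAA, the AP-1 motif TGANTCA or the SMAD motif GTCTG. The Bgn window lies at chrX:73483351-73483600 on the plus strand and the Col1a2 window at chr6:4505368-4505617 on the plus strand.
Bgn: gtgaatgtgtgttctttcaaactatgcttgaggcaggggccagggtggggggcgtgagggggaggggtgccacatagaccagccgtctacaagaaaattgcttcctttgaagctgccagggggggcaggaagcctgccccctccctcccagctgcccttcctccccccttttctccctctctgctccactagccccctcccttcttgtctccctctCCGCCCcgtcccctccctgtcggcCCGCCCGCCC
Col1a2: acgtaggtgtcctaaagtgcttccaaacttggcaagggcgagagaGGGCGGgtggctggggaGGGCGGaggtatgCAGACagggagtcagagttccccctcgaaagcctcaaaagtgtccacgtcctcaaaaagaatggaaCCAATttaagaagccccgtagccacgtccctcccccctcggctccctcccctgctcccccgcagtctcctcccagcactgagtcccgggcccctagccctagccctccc
The Bgn window held 3 GC boxes, all read on the minus strand and the last pair overlapping each other, and no match to the other motifs. The Col1a2 window held 2 GC boxes, 1 CCAAT box and 1 SMAD motif. Of 32851 RefSeq promoter windows of this length, 32.7% held a GC box, 33.8% a CCAAT box, 12.4% a TATA box, 6.75% an AP-1 motif and 42.2% a SMAD motif. These matches describe the letters of the window only.

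The values are log2 levels made by robust multi-array averaging (RMA), so that a difference of 1 is a doubling. They ran from 0.83 to 13.3 over the tested clusters, and the medians of the 9 lines from 4.64 to 4.70. Of the tested clusters, 62.3% had the same value in at least 2 lines and 20.6% in at least 4, which for dim members sets a limit to the differences that can be seen. All 15 pluripotency markers measured lay at or above the 74.8th percentile of mean level. Although all lines are labelled female, the Y-linked gene Eif2s3y had a level of 5.19 in WM3, 3.72 in KAA2 and 4.78 in FB1, against 1.77 to 2.20 in the other 6 lines, and Uty was highest in the same 3 lines. The 2 other Y-linked genes measured did not share this pattern: Kdm5d ran from 1.96 to 2.46, with WM2 the highest, and Usp9y from 1.46 to 1.99, with FB1 the lowest. Because of Eif2s3y, results are also given without WM3, KAA2 and FB1. Chromosome-wide levels differed between lines as well. Relative to the mean of the 9 lines, the median of the clusters on chromosome 11 was 0.12 higher in WM2, that on chromosome 6 was 0.16 higher in KAA1 and 0.24 higher in FB1, and that on chromosome X was 0.29 higher in FB2 and 0.14 higher in FB3. On the other 17 chromosomes the medians of the lines lay between -0.07 and 0.06.

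Bgn was about 2-fold higher in 2 of the 3 mESCWM lines than in any other line. Its log2 level was 6.28 in WM1, 6.22 in WM2 and 5.23 in WM3, against 5.12, 5.09 and 4.93 in the mESCKAA lines and 5.03, 4.99 and 5.03 in the mESCFB lines. WM1 and WM2 were high, while WM3 lay only just above KAA1, so the mESCWM lines did not overlap the others but were split among themselves. The gap between WM2 and WM3 was 1.00 on the log2 scale, a factor of 2.00, against a range of 0.30 over the 7 lines other than WM1 and WM2. Group means were 5.91 ± 0.59 in mESCWM, 5.05 ± 0.11 in mESCKAA and 5.01 ± 0.02 in mESCFB (SD, n = 3 each). The mean of mESCWM was 0.90 above that of mESCFB (SE 0.24, 1.86-fold) and 0.86 above that of mESCKAA (1.82-fold). Between mESCKAA and mESCFB, which the choice of Bgn did not use, the difference was 0.03 (SE 0.24, limma adjusted p = 0.994), smaller than the SD within mESCKAA. Limma's SE and p pool the spread of all 3 groups, so that the SD of 0.59 within mESCWM weighs on them. In the order of the group means, mESCKAA and mESCFB were neighbours that did not differ beyond their spread.

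**Figure D1:**
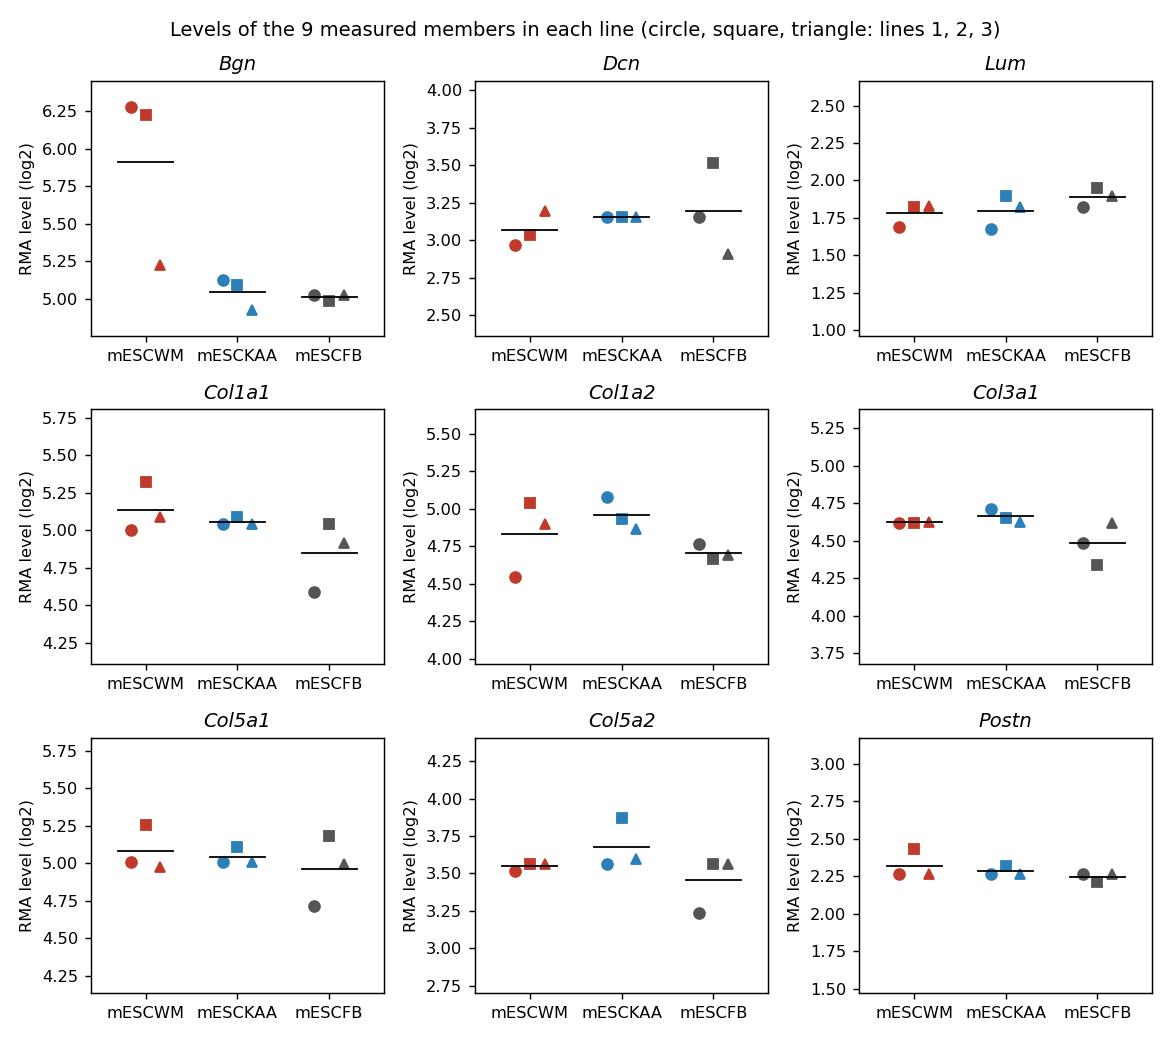
Log2 RMA levels of the 9 measured members, 1 panel per gene, with 1 point per line and a bar at the mean of each group of 3 lines; every panel spans the same range of log2 units. WM1 and WM2 stand apart in Bgn (6.28 and 6.22, the other 7 lines between 4.93 and 5.23), and in no other panel.

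The height of Bgn in mESCWM rested on WM1 and WM2. Without WM3, the difference from mESCFB was 1.24, and without WM1 it was 0.71. Without the 3 lines with the highest Eif2s3y levels it was 1.24 against mESCFB and 1.23 against mESCKAA. Bgn is on chromosome X, where the clusters as a whole were highest in FB2 and FB3, the lines with Bgn levels of 4.99 and 5.03. With the median of its chromosome removed from each line, Bgn was 1.08 higher in mESCWM than in mESCFB, 0.83 higher in mESCWM than in mESCKAA and 0.24 higher in mESCKAA than in mESCFB. The SD of Bgn within mESCWM was reached by 346 of the tested clusters (1.48%), and its range of 1.35 over the 9 lines by 774 (3.31%). Bgn lay at the 59th percentile of mean level.

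The 2 other proteoglycans of the set had low signals and were not high where Bgn was high. Decorin (Dcn), which binds type I collagen and TGF-beta, had levels of 2.97, 3.04 and 3.19 in mESCWM, 3.16 in each of the mESCKAA lines, and 3.16, 3.52 and 2.91 in mESCFB. WM1 and WM2 held 2 of the 3 lowest values. The mean of mESCWM differed from that of mESCFB by -0.13 (SE 0.14, limma adjusted p = 0.914). Lumican (Lum), which regulates the diameter of collagen fibrils, had levels of 1.69, 1.82 and 1.83 in mESCWM, 1.68, 1.89 and 1.82 in mESCKAA, and 1.82, 1.95 and 1.89 in mESCFB. Its groups overlapped, with a difference of -0.11 between mESCWM and mESCFB (SE 0.08, limma adjusted p = 0.863). The probes of Lum lay at the 4.3rd percentile of mean signal and those of Dcn at the 25.8th, which places them on the array and does not compare amounts of transcript.

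The genes of type I collagen, the most abundant collagen of fibroblasts, differed little between groups. Their signals lay near the array's median, at the 55.0th percentile of mean level for Col1a1 and the 52.5th for Col1a2. The 6 other fibrillar collagens had a median at the 51.5th percentile. Whether these signals stood above background was not tested. Col1a1, which encodes the alpha 1 chain, had levels of 5.00, 5.32 and 5.09 in mESCWM, 5.04, 5.09 and 5.04 in mESCKAA, and 4.59, 5.04 and 4.91 in mESCFB. WM2 was the highest line and FB1 the lowest, and the groups overlapped. The mean of mESCWM was 0.29 above that of mESCFB (SE 0.13, limma adjusted p = 0.819), and 0.18 above it without WM3, KAA2 and FB1. Col1a1 lies on chromosome 11, whose clusters were higher in WM2, and with the chromosome median removed the difference was 0.25.

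Col1a2, which encodes the alpha 2 chain, had levels of 4.55, 5.04 and 4.90 in mESCWM, 5.08, 4.93 and 4.86 in mESCKAA, and 4.76, 4.67 and 4.69 in mESCFB. WM1, the line with the highest Bgn, had the lowest Col1a2 of all lines. The mESCKAA lines lay above all mESCFB lines by 0.25 on average (SE 0.13, limma adjusted p = 0.918), and the difference between mESCWM and mESCFB was 0.12 (SE 0.13, limma adjusted p = 0.904). Col1a2 lies on chromosome 6, whose clusters were higher in KAA1 and FB1. With the chromosome median removed, the difference between mESCKAA and mESCFB was 0.24. The part of these chromosome-wide shifts in the collagen levels was not tested beyond this subtraction.

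Col3a1, which encodes the type III collagen found with type I in loose connective tissue, had levels of 4.62, 4.62 and 4.63 in mESCWM, 4.71, 4.65 and 4.63 in mESCKAA, and 4.49, 4.34 and 4.62 in mESCFB. The mESCWM lines were within 0.01 of each other although Bgn differed among them by about 1. The mESCKAA lines lay above all mESCFB lines by 0.18 on average (SE 0.08, limma adjusted p = 0.918), and the mESCWM mean differed from that of mESCFB by 0.14 (SE 0.08, limma adjusted p = 0.825). Col1a2 and Col3a1 were thus the 2 of 9 members whose mESCKAA lines all lay above the mESCFB lines, as did 4.38% of the tested clusters. Between mESCWM and mESCFB this held for 1 member, Bgn, and for 3.58% of clusters, and between mESCWM and mESCKAA again for Bgn and for 4.03% of clusters. With Bgn, these counts follow from how it was chosen.

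The type V collagens, minor chains that start the assembly of type I fibrils, also differed little between groups. Col5a1 had levels of 5.01, 5.26 and 4.98 in mESCWM, 5.01, 5.11 and 5.01 in mESCKAA, and 4.71, 5.18 and 5.00 in mESCFB. As with Col1a1, WM2 was the highest line and FB1 the lowest, and the difference between mESCWM and mESCFB was 0.12 (SE 0.13, limma adjusted p = 0.910). Col5a2 had levels of 3.52, 3.56 and 3.56 in mESCWM, 3.56, 3.87 and 3.60 in mESCKAA, and 3.23, 3.56 and 3.56 in mESCFB, with 5 lines at the same value. KAA2 was high and FB1 low, and the mean of mESCWM differed from that of mESCFB by 0.09 (SE 0.12, limma adjusted p = 0.924). Without WM3, KAA2 and FB1, the difference between mESCWM and mESCFB was 0.05 for Col5a1 and -0.02 for Col5a2.

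Periostin (Postn), a matricellular protein that is secreted by activated fibroblasts and binds type I collagen, had levels of 2.27, 2.43 and 2.27 in mESCWM, 2.27, 2.32 and 2.27 in mESCKAA, and 2.27, 2.21 and 2.27 in mESCFB. The value was the same in 6 of the 9 lines, and WM2 was the highest. The mean of mESCWM differed from that of mESCFB by 0.07 (SE 0.07, limma adjusted p = 0.902), and Postn lay at the 11.8th percentile of mean level.

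Over the 8 members other than Bgn, no difference passed limma's threshold (two-sided, Benjamini-Hochberg adjusted p under 0.05 over the 23410 clusters) in any of the 3 comparisons. The background was the same: 0% of the tested clusters passed between mESCWM and mESCFB, 0% between mESCKAA and mESCFB and 0% between mESCWM and mESCKAA. At an unadjusted p under 0.05, limma gave 1380, 1126 and 1473 clusters in these comparisons, and none of the 8 members was among them in any. The rank product, the test that the study's methods name, passed 0.0897%, 0.128% and 0.316% of the clusters in the same order of comparisons, and none of the 8. The median difference of the 8 members was 0.11 between mESCWM and mESCFB, with 6 of 8 above 0, against a median of 0.00 over all tested clusters. It was 0.13 between mESCKAA and mESCFB, again with 6 of 8 above 0, against 0.01 over all clusters, and -0.03 between mESCWM and mESCKAA, with 3 of 8 above 0, against -0.01. The first pair of these comparisons shares the mESCFB lines. FB1 was the lowest line in Col1a1, Col5a1 and Col5a2, and without FB1 the median between mESCKAA and mESCFB was 0.06, while without WM3, KAA2 and FB1 together it was 0.02. Without these 3 lines no member passed either (lowest limma adjusted p = 0.695, for Lum between mESCWM and mESCFB).

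**Figure D2:**
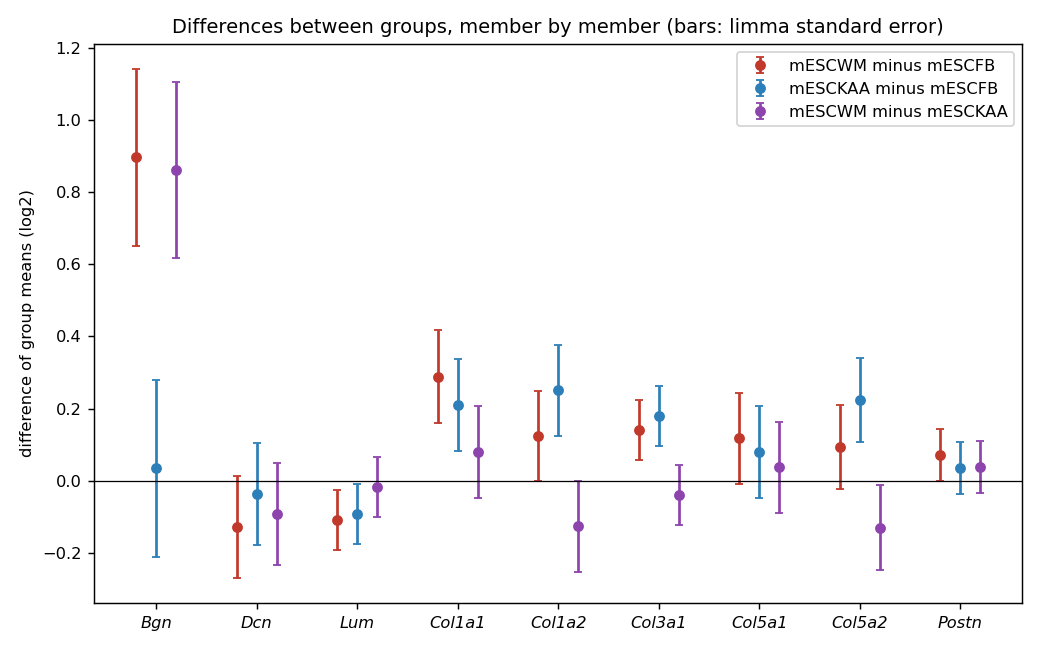
Difference of group means on the log2 scale for each measured member, with limma's standard error, in 3 comparisons. Bgn lies at 0.90 and 0.86 in the comparisons of mESCWM, for which it was chosen, and the other 8 members lie between -0.13 and 0.29.

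The correlation of Bgn with the other members across lines took either sign, from -0.47 to 0.60, and passed no test. With 9 lines, only a strong correlation could pass. The 8 relations were computed over the 9 lines, of which WM1 and WM2 stand apart in Bgn, so each was computed again over the other 7. Pearson's r with Bgn was highest for Postn, at 0.60 (two-sided exact permutation p = 0.0972; Spearman's rho 0.48, exact permutation p = 0.214), and 0.32 over the 7 lines. For Col1a1, r was 0.45 (exact permutation p = 0.320; rho 0.36, p = 0.353), and 0.26 over the 7 lines. Col5a1 had r = 0.37 (exact permutation p = 0.317; rho 0.12, p = 0.774), and -0.05 over the 7 lines. The relation with Col3a1 was weaker still, at r = 0.23 (exact permutation p = 0.560; rho 0.27, p = 0.484), and 0.43 over the 7 lines. Col1a2 had r = -0.07 (exact permutation p = 0.855; rho 0.20, p = 0.613), but 0.53 over the 7 lines, in which WM1, the line with the lowest Col1a2, is left out. Col5a2 had r = -0.05 (exact permutation p = 0.742; rho -0.29, p = 0.456), and 0.16 over the 7 lines. Both proteoglycans ran against Bgn: r was -0.46 for Dcn (exact permutation p = 0.214; rho -0.39, p = 0.301) and -0.47 for Lum (exact permutation p = 0.166; rho -0.44, p = 0.242), and over the 7 lines -0.11 and -0.33.

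The median r of the 8 members with Bgn was 0.09, against -0.02 over all other tested clusters. None of the 8 had an r above 0.8, a value that 1.23% of the other clusters reached. With the Bgn level as a covariate in limma, 0.00427% of 23409 clusters passed, a single cluster, that of Serpinf1, and no member did (lowest limma adjusted p = 0.73). That fit includes the group difference on which Bgn was selected. With group means in the fit, 15 clusters passed (0.0641%), all with a slope below 0, and neither a member nor Serpinf1 (limma adjusted p = 0.0997) was among them. Leaving out WM1 gave a median r of 0.37 and leaving out WM2 gave -0.02, so that 1 line decided its value. With the group means removed the median was 0.01.

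**Figure D3:**
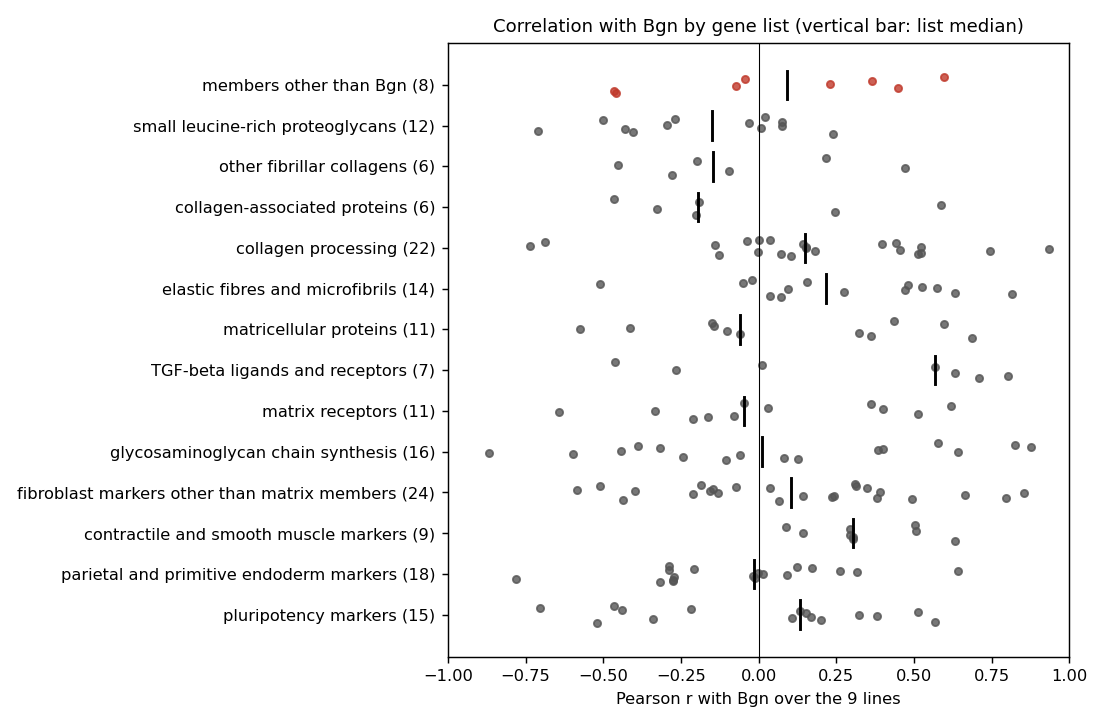
Pearson's r with Bgn over the 9 lines for the 8 other members and for each other gene list (number of entries in brackets), 1 point per entry, with a bar at the list's median. Loxl3 was entered more than once. The 8 members spread on both sides of 0, from -0.47 to 0.60, with a median of 0.09; the TGF-beta list has the highest median, 0.57.

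The other genes of the matrix were taken from lists, and as with the members none of them passed limma in any comparison. Here and below, most genes named from a list had its smallest p-values between mESCWM and mESCFB, a comparison on which Bgn was selected. A high r with Bgn is thus partly built in for those higher in mESCWM, and is given as a description. Of 12 further small leucine-rich proteoglycans, 4 were higher in mESCWM than in mESCFB and 8 lower (median -0.04), and their median r with Bgn was -0.15. Their signals were mostly low, with a median at the 13.7th percentile of mean level. Osteoglycin (Ogn), at the 8.5th percentile, had the lowest r with Bgn, -0.71. Its difference between mESCWM and mESCFB was -0.17 (SE 0.10, limma adjusted p = 0.834). In addition, the difference between mESCWM and mESCFB was -0.19 for Optc (limma adjusted p = 0.819) and 0.22 for Kera (limma adjusted p = 0.847). The 6 other fibrillar collagens had a median r of -0.15 with Bgn and a median difference of 0.02 between mESCWM and mESCFB, with Col11a1, a minor collagen of cartilage fibrils, at 0.16 (SE 0.08, limma adjusted p = 0.819), Col27a1 at 0.18 and Col11a2 at -0.06. Among 6 collagen-associated proteins, Col12a1, a collagen that sits on the surface of type I fibrils, was 0.28 higher in mESCWM than in mESCFB (SE 0.12, limma adjusted p = 0.819), with Col6a3 at -0.10 and Col6a2 at -0.12.

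Of the 22 measured entries for genes that process and cross-link collagen, 11 were higher in mESCWM than in mESCFB (median 0.01). Both figures include a repeat, because Loxl3 (difference 0.08) was entered more than once. Without the repeat, the middle value is that of P3h1, -0.02. Serpinh1, the chaperone of procollagen in the endoplasmic reticulum, was 0.65 higher in mESCWM than in mESCFB (SE 0.21, limma adjusted p = 0.819) and had an r of 0.74 with Bgn. Loxl1, a cross-linking lysyl oxidase, was 0.18 higher (SE 0.08, limma adjusted p = 0.819) with an r of 0.93, the only gene of this list above 0.8. Bmp1, which cleaves the propeptides of collagen and of probiglycan, was 0.19 higher (SE 0.10, limma adjusted p = 0.823). Over all entries, the median r with Bgn was 0.15, with the repeat of Loxl3 included. Single values ran from -0.74, for Pcolce, to 0.93. Pcolce differed by -0.27 between mESCWM and mESCFB (SE 0.20, limma adjusted p = 0.8545).

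Of the enzymes that build the sugar chains of biglycan, 2 of 16 had an r above 0.8 with Bgn, while the median r was 0.01. Chst11, which sulfates chondroitin, had levels of 4.93, 4.92 and 4.80 in mESCWM, 4.62, 4.57 and 4.34 in mESCKAA, and 4.58, 4.48 and 4.57 in mESCFB. All mESCWM lines, WM3 included, were above the other lines, with a difference of 0.34 from mESCFB (SE 0.09, limma adjusted p = 0.806) and of 0.37 from mESCKAA (limma adjusted p = 0.752). Chst14, which sulfates dermatan, had levels of 6.55, 6.14 and 6.04 in mESCWM, 5.93, 5.93 and 5.39 in mESCKAA, and 5.77, 5.80 and 5.87 in mESCFB, again with no overlap, and a difference of 0.43 between mESCWM and mESCFB (SE 0.17, limma adjusted p = 0.819). Xylt1, which adds the first sugar to the core protein, had a difference of 0.15 (limma adjusted p = 0.853) and an r of -0.10. At the other end, Csgalnact2, which starts the chondroitin chain, had an r of -0.87 over a range of levels from 4.58 to 4.68.

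Biglycan is known to bind TGF-beta. The 7 genes of TGF-beta ligands and receptors had the highest median r with Bgn of the lists, 0.57, with single values from -0.46 to 0.80. A link between Bgn and TGF-beta was not tested. Tgfb2 had levels of 5.50, 5.67 and 5.24 in mESCWM, 4.56, 4.58 and 5.16 in mESCKAA, and 4.78, 4.75 and 4.83 in mESCFB. Every mESCWM line was above the others, by 0.68 on average against mESCFB (SE 0.17, limma adjusted p = 0.743). Against mESCKAA the difference was 0.70 (limma adjusted p = 0.752), and r with Bgn was 0.80. With Bgn as a covariate, the unadjusted limma p of Tgfb2 was 0.0028 without group means in the fit and 0.401 with them. The receptor Tgfbr2 was 0.21 higher in mESCWM than in mESCFB (SE 0.10, limma adjusted p = 0.819), while the co-receptor Eng differed by -0.42 (SE 0.13, limma adjusted p = 0.819). Of the matricellular proteins, fibronectin (Fn1), on which fibroblasts assemble collagen, was 0.73 higher in mESCWM than in mESCFB (SE 0.25, limma adjusted p = 0.819), Ccn4 0.41 higher (SE 0.13, limma adjusted p = 0.819) and Thbs1 0.33 higher (limma adjusted p = 0.838), with an r of 0.69, 0.60 and 0.32 with Bgn. Over the 11, the median difference between mESCWM and mESCFB was 0.02. Their median r with Bgn was -0.06, with single values from -0.58 to 0.69.

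Of the 14 genes of elastic fibres and microfibrils, 12 were higher in mESCWM than in mESCFB (median 0.11), among them Fbln1 at 0.28 (r of 0.82 with Bgn, limma adjusted p = 0.823), Fbln2 at 0.27 (limma adjusted p = 0.819) and Mfap4 at 0.23 (limma adjusted p = 0.819). The 11 matrix receptors had a median difference of 0.00 between mESCWM and mESCFB, with Itgav, a subunit of the fibronectin and vitronectin receptors, at 0.36 (limma adjusted p = 0.823), the collagen receptor Ddr2 at 0.14 (limma adjusted p = 0.850) and the collagen receptor subunit Itga1 at -0.24 (limma adjusted p = 0.823).

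Markers of feeder fibroblasts other than the members were measured beside these results. In RNA from whole cultures, fewer cells of a type and less RNA per cell cannot be told apart. Of the 24 markers, 13 lay below the median level of the array, among them Fap and Il6, at the 10.5th and 1.5th percentile. Their summed level on the linear scale was 1694 to 1869 in mESCWM, 1450 to 1595 in mESCKAA and 1364 to 1476 in mESCFB, so that the mESCWM lines, WM3 included, lay above the others. The sum was carried by Vim, the intermediate filament of mesenchymal cells, which had levels of 9.33, 9.82 and 9.28 in mESCWM, 8.81, 9.11 and 8.98 in mESCKAA, and 8.69, 9.01 and 9.02 in mESCFB, and by Cald1, also present in other cells. Vim was 0.57 higher in mESCWM than in mESCFB (SE 0.16, limma adjusted p = 0.808) with an r of 0.80 with Bgn. Mmp2, a gelatinase of fibroblasts, had an r of 0.86, with levels of 6.28, 6.30 and 5.77 in mESCWM, 5.36, 5.41 and 5.77 in mESCKAA, and 5.84, 5.43 and 5.52 in mESCFB. Like Bgn it was high in WM1 and WM2 and not in WM3. Prrx2 was 0.44 higher in mESCWM than in mESCFB (SE 0.12, limma adjusted p = 0.808). Other fibroblast markers did not follow Bgn. Thy1 had an r of 0.06 with Bgn, and Pdgfra an r of -0.44 and a difference of -0.17 between mESCWM and mESCFB (SE 0.17). Over the whole list, 16 of 24 markers were higher in mESCWM than in mESCFB (median 0.06), the median r with Bgn was 0.10, and 1 of 24, Mmp2, had an r above 0.8.

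Contractile and smooth muscle genes, which activated fibroblasts share with other cells, were all 9 higher in mESCWM than in mESCFB (median 0.29). Acta2, smooth muscle actin, had levels of 8.87, 9.82 and 9.34 in mESCWM, 8.56, 8.88 and 8.67 in mESCKAA, and 7.87, 8.31 and 8.56 in mESCFB. Its difference was 1.10 between mESCWM and mESCFB (SE 0.25, limma adjusted p = 0.685), with WM1 the lowest of the mESCWM lines and within the range of mESCKAA. Tpm1 was 0.36 and Lmod1 0.29 higher in mESCWM than in mESCFB (limma adjusted p = 0.819 for each). As a mean over the list, the deviation from the 9 lines was 0.30 in WM1, 0.05 in WM2 and 0.33 in WM3, and so was high in WM3, where Bgn was not, and near 0 in WM2, where Bgn was high. Over the 9 lines, the contractile genes had a median r of 0.30 with Bgn, with single values from 0.09 to 0.63. For the mean of this list r was 0.47, against 0.54 for the mean of the 24 fibroblast markers and 0.09 for that of the 8 other members. The part of fibroblast or contractile cells in the level of Bgn was not tested.

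**Figure D4:**
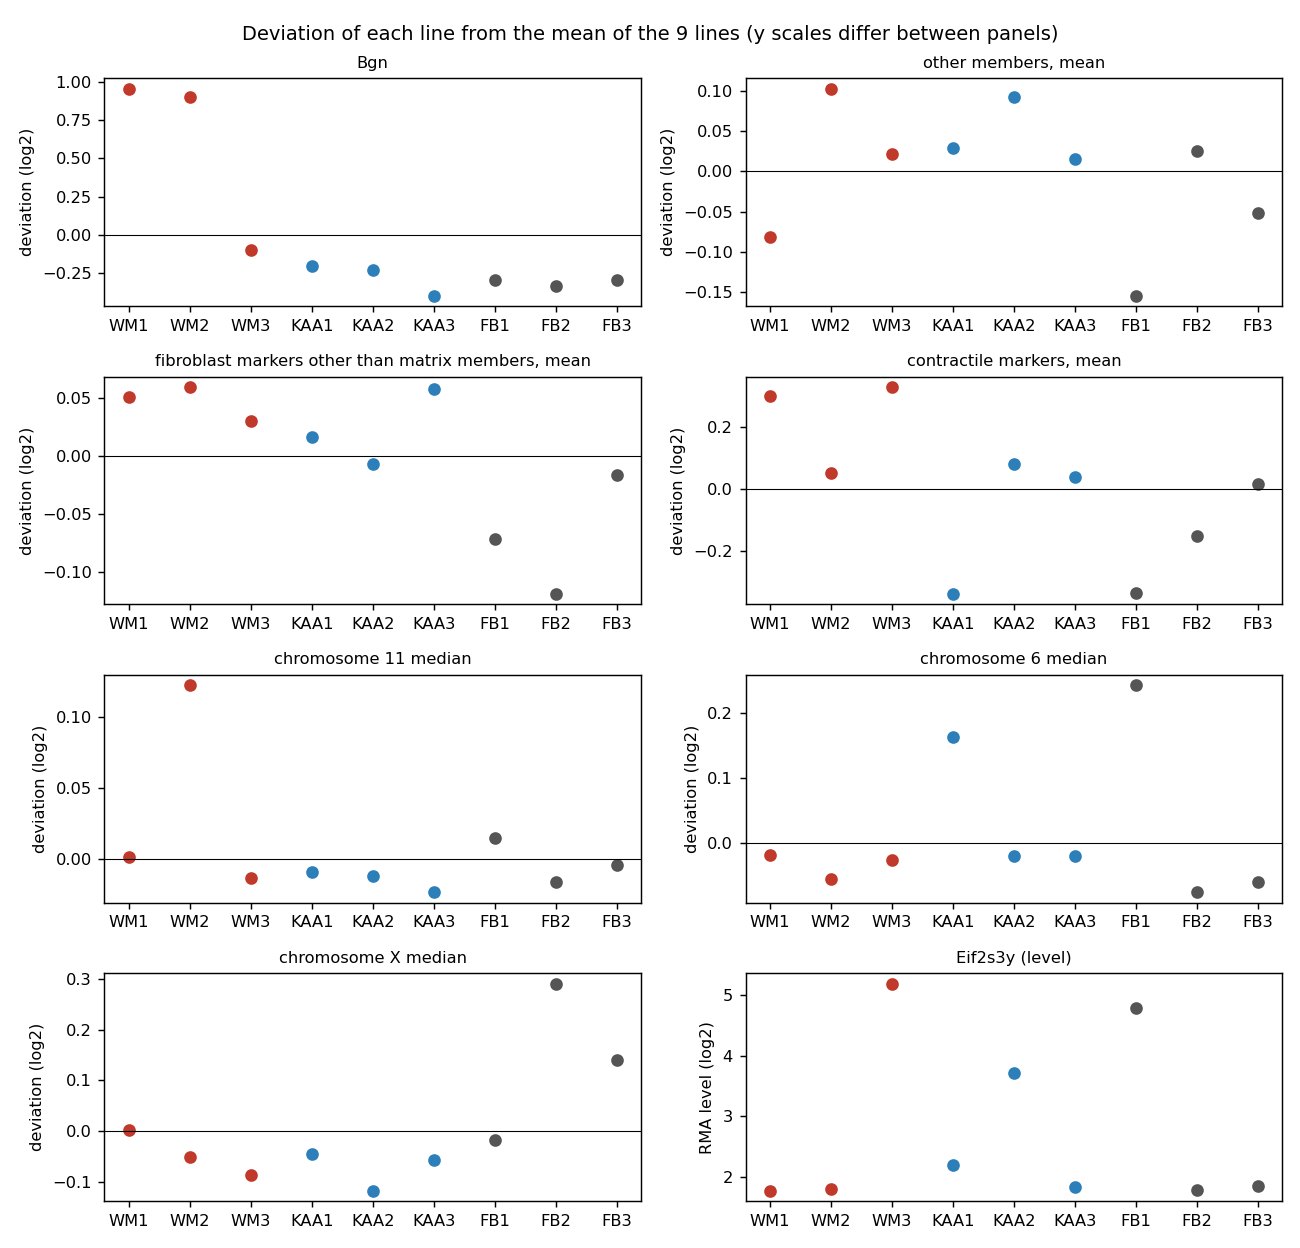
Deviation of each line from the mean of the 9 lines, on the log2 scale, for Bgn, the mean of the 8 other members, the mean of the fibroblast and contractile markers and the medians of chromosomes 11, 6 and X, and the log2 level of Eif2s3y; the y scale differs between panels. Bgn is high in WM1 and WM2 (0.95 and 0.90), whereas the mean of the other members is -0.08 in WM1 and 0.10 in WM2.

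Markers of endoderm and of pluripotency had a median r near 0 with Bgn. Single values ran from -0.78 (Sox7) to 0.64 for endoderm and from -0.70 (Tdgf1) to 0.57 (Nanog) for pluripotency. The 18 endoderm markers, as a mean, were 0.70 above the 9-line mean in KAA1 and 0.46 above it in FB1, with a median r with Bgn of -0.02, against 0.13 for the 15 pluripotency markers. Sox7 differed by -0.65 between mESCWM and mESCFB (SE 0.25, limma adjusted p = 0.819), and the keratins Krt8 and Krt18 differed by 0.31 and 0.22. Of the 15 pluripotency markers, 6 were higher in mESCWM than in mESCFB (median -0.125), among them Nanog at 0.26 (SE 0.41, limma adjusted p = 0.945). Tdgf1 differed by -0.27 between mESCWM and mESCFB (SE 0.06, limma adjusted p = 0.733). Pou5f1 differed by -0.26 (SE 0.08, limma adjusted p = 0.819) and Zfp42 by -0.31 (limma adjusted p = 0.823).

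The genes whose pattern over the 9 lines was most like that of Bgn were none of the 8 other members. Of these 8, only Col1a1, Col1a2 and Col5a1 reached the array's median level, the limit for this search. Over the 10930 brighter clusters (mean level not below the array's median) that carry a single symbol, Pearson's r with Bgn exceeded 0.9 in 33, and the 10 highest were Wbp2, Serpinf1, Ripor1, Celsr1, Cdh3, Map4, Sh3bp1, Fbxl20, Eif4enif1 and Scd1. Wbp2, a binding partner of the coactivator YAP, had an r of 0.99, with levels of 9.30, 9.32 and 8.98 in mESCWM, 8.98, 8.96 and 8.91 in mESCKAA, and 8.92, 8.88 and 8.88 in mESCFB. Serpinf1, a secreted protein that binds collagen and heparan sulfate, had an r of 0.98, with levels of 6.70, 6.70 and 5.86 in mESCWM, 5.86, 5.62 and 5.53 in mESCKAA, and 5.86, 5.68 and 5.78 in mESCFB. Scd1, a desaturase of fatty acids, had an r of 0.94, with levels of 8.44, 8.52 and 7.49 in mESCWM, 7.51, 7.68 and 7.42 in mESCKAA, and 7.81, 7.57 and 7.64 in mESCFB. The placental cadherin Cdh3 was at 6.87, 6.77 and 6.49 in mESCWM and between 6.40 and 6.49 in the other groups. Each of these was high in WM1 and WM2 and, in WM3, at or near the level of the other lines. Wbp2, Serpinf1, Fbxl20 and Eif4enif1 lie on chromosome 11, as do 962 of the 10930 clusters searched. That chromosome was higher as a whole in WM2 but not in WM1 (0.00), and its part in these levels was not tested.

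**Figure D5:**
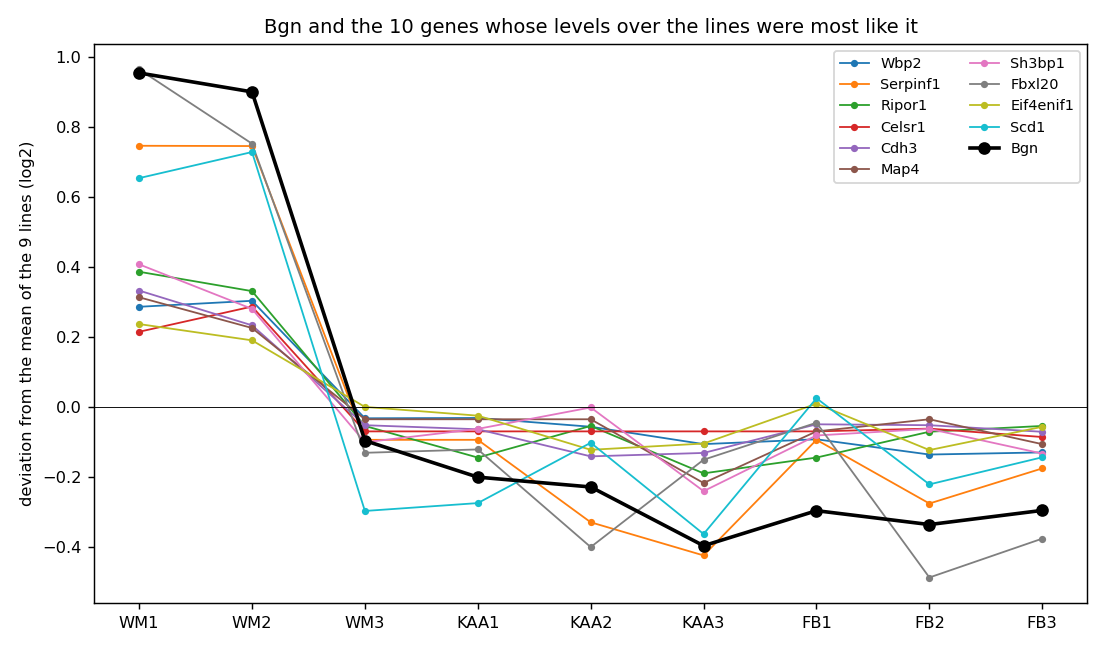
Deviation from the mean of the 9 lines on the log2 scale for Bgn (black) and the 10 genes with the highest Pearson's r with it among clusters at or above the median level. All are high in WM1 and WM2, with Bgn at 0.95 and 0.90.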

How the data were processed

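RNA from 9 mESC lines was hybridized to 1 array each. The deposited values are log2 levels that the authors made by RMA (affylmGUI in R 3.1.0, beside Affymetrix Expression Console), after background correction and normalization between arrays. Of 35556 clusters, 12146 have no gene in the annotation, and the other 23410 were tested. Groups were taken from the sample labels. Group means were compared by lmFit and eBayes of limma 3.58.1 (R 4.3.3) over all 9 lines, which was checked on simulated data. The rank product of the study's methods was run with 100 permutations and a percentage of false positives under 0.05. Correlations used scipy 1.17.1 with exact permutation tests; tables used numpy 2.4.6 and pandas 2.3.3 on Python 3.11.15, plots matplotlib 3.10.9, and robust eBayes statmod 1.5.0.

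The members and the 14 other gene lists (175 of 180 entries measured, Loxl3 among them more than once) were chosen with earlier results of these data known. Named were all members, up to 3 genes per list with the smallest p between mESCWM and mESCFB, and the 10 genes most like Bgn. Outside this rule, Csgalnact2, Pcolce, Fap, Il6, Cald1, Thy1, Pdgfra, Nanog, Loxl3, P3h1 and Eif2s3y were picked with their values in view. Genes with several clusters took the brightest. With 3 arrays per group, the number of arrays limits the precision, and p-values measure the spread between lines. Alternatives were other filters, normalizations, settings of limma, a replicate block and leaving out lines.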

Additional observations from a re-analysis of the deposited data

How the results depend on the processing

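Limma's count of clusters passing was 0 in each comparison under every filter, normalization and limma setting tried, and 0 to 1 when lines were left out 1 at a time (0 to 1 between mESCWM and mESCFB, 0 between mESCKAA and mESCFB, 0 to 1 between mESCWM and mESCKAA); the 1 cluster, without WM3, was Bgn, which was selected on these differences, so that this is no test of it. The rank product passed 21, 30 and 74 clusters in these comparisons; the cause of the difference between the tests was not tested. The Bgn difference ranged from 0.71 to 1.24 between mESCWM and mESCFB, from -0.0032 to 0.09 between mESCKAA and mESCFB and from 0.68 to 1.20 between mESCWM and mESCKAA when 1 line was left out. With chromosome medians removed, chosen after seeing the data, the difference of Bgn between mESCKAA and mESCFB was 0.2442, against 0.03 before. Without WM3, KAA2 and FB1 together, also chosen after seeing the data, the median of the other members between mESCKAA and mESCFB was 0.0219, against 0.13. That median ranged from 0.06 to 0.17 with 1 line left out. The other members' median between mESCWM and mESCKAA was -0.04 to 0.02, and between mESCWM and mESCFB 0.02 to 0.13. The median r with Bgn ranged from -0.02 to 0.37 over its alternatives. In the labels, the replicate numbers do not mark a shared litter or batch. In the values, 6 of 9 same-numbered pairs of lines deviated together with r over 0.1. The r of the pairs ran from -0.11 to 0.46, the highest for FB1 with KAA1. Of the 9 lines, 6 correlated best with a line of their own number. Whether lines of 1 number share a source was not tested. With the replicate block the counts remained 0, and the median r was 0.25. No named gene other than Bgn changed its call in the group comparisons under any alternative; with Bgn as a covariate, Serpinf1 passed only without group means in the fit.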
